A study of Mus musculus with 44 samples.

Results

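The 9 genes described here encode 5 matrix metalloproteinases (Mmp2, Mmp9, Mmp11, Mmp14 and Mmp15), the 3 tissue inhibitors Timp1, Timp2 and Timp3, and the membrane-anchored inhibitor Reck. They were taken by gene name from tables that list 32287 genes, and each name matched 1 gene identifier. Mmp2 was selected on its lower RNA level in extraembryonic than in embryonic gut cells at E9.5, so those values are given as a description and without a test. The values that led to the choice of the other members are not known, and the same restraint is applied to them in that contrast.

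The series holds 44 low-input RNA libraries from mouse embryos made by joining a pre-compaction mCherry+ morula (CD1/G4) with GFP+ mESCs (G4), which form most of the embryo while the morula supplies the extraembryonic lineages. At E6.5 the groups were epiblast (Epi), distal extraembryonic endoderm (exEndo 1) and proximal extraembryonic endoderm (exEndo 2), each dissected from 1 embryo per library (n = 4). At E9.5, EPCAM+ cells were sorted from 4 pooled embryos per library: emMidgut and emHindgut were GFP+ with low mCherry, exMidgut and exHindgut were mCherry+ cells of the gut, and YsEndo was mCherry+ yolk sac endoderm (n = 4). The study describes the GFP+ cells with low mCherry as embryonic cells that took up remnants of dying extraembryonic cells. It states that traces of extraembryonic RNA in them would only weaken the differences between origins. At E13.5, EPCAM+ cells of the small intestine (SI) and colon came from single embryos, as emSI and emColon (GFP+, WT) and exSI and exColon (mCherry+, Trp53 KO), with n = 3. Every group carries one of the constitutive fluorescent reporters. Origin and strain change together in each contrast of extraembryonic with embryonic cells, since the GFP+ line is 1 ESC line of G4 background (F1G4 in the study's methods) and the morulae are CD1/G4, with mCherry+ sires from a colony bred to C57BL/6J females. The GFP+ line is male while mCherry+ cells can be of either sex, so sex can differ with origin too, and at E13.5 the Trp53 genotype changes with them. The knockout was made with Cas9 and 3 guides in the zygotes that gave the morulae, so it is limited to the extraembryonic lineage. Whether the replicates of a group at E6.5 and E9.5 came from separate litters is not given, and p-values measure the spread between these libraries.

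Matrix metalloproteinases are zinc-dependent enzymes that are made as inactive proenzymes and cut collagens, laminins and other matrix proteins. MMP2 (gelatinase A) degrades denatured collagen and the type IV collagen of basement membranes, the sheet on which gut and yolk sac epithelia rest. Its proenzyme is activated at the cell surface by MMP14, also called MT1-MMP, with TIMP2 acting as the bridge between both proteins. TIMPs otherwise block the active enzymes, and RECK restrains several of them at the membrane.

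The deposited unit, TPM, is scaled for transcript length, so levels can be compared between genes. It is a share of each library's total, so comparisons between libraries can shift with composition. In YsEndo the 9 visceral and yolk sac endoderm markers alone summed to 64199 to 75294 TPM. Aligned sequence per library ranged from 3.53 to 12.04 Gb and 10382 to 13596 genes were above 1 TPM. In a check of the labels, the 9 visceral and yolk sac endoderm markers summed to 3.37 to 6.09 TPM in Epi and to 5057 to 16164 TPM in exEndo 1 and exEndo 2, and Epcam was at 331 to 1656 TPM in all gut libraries of E9.5 and E13.5. The 7 epiblast markers summed to 3295 to 4840 TPM in Epi, but also to 373 to 686 TPM in exEndo 1 and 174 to 231 TPM in exEndo 2, with 6 or 7 and 2 to 5 of the 7 above 1 TPM. The 7 markers of extraembryonic ectoderm and trophoblast summed to 64.4 to 99.7 TPM in exEndo 1, 18.8 to 50.0 TPM in exEndo 2 and 19.3 to 126 TPM in Epi. The part of these cells in the E6.5 values was not tested. Libraries emSI 1 and emSI 2 stood apart in holding RNA of mesenchyme genes, and emMidgut 1 and 3 held Dppa3, a germ cell gene, at 224 and 183 TPM. Tests that include these libraries were repeated without them. A difference is called here at an adjusted p under 0.05 in limma's test over all genes together with a log2 difference above 1 in size, on the scale log2(TPM + 1), which understates the change of low genes.

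Mmp2 RNA was found in the epiblast and in cells of the embryonic gut at E9.5, and was at or near 0 in most groups of extraembryonic origin. Its locus lies at chr8:92827291-92853420 on the plus strand of mm10. In Epi the 4 libraries had 6.45, 10.2, 13.0 and 8.12 TPM. In exEndo 1 they had 0, 1.04, 0 and 0.129 TPM, and in exEndo 2 they had 0, 0, 0 and 0.128 TPM. Every epiblast library was above every library of extraembryonic endoderm at the same stage.

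At E9.5, Mmp2 was highest in emHindgut, with 77.3, 83.1, 63.2 and 67.0 TPM, followed by emMidgut with 34.4, 33.6, 23.0 and 22.4 TPM. Among cells of extraembryonic origin it had 3.37, 10.6, 12.6 and 15.4 TPM in exHindgut and 1.24, 0.336, 0.303 and 0.461 TPM in exMidgut. It was listed at 0 in the 4 YsEndo libraries. At E13.5 it was listed at 0 in all libraries of emColon, exSI and exColon, while emSI had 45.0, 10.8 and 0 TPM.

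In the order of the 12 group means, Mmp2 stood at 72.7 ± 9.15 TPM (SD, n = 4) in emHindgut, 28.3 ± 6.55 in emMidgut (n = 4), 18.6 ± 23.5 in emSI (n = 3), 10.5 ± 5.14 in exHindgut (n = 4) and 9.43 ± 2.82 in Epi (n = 4). The next were exMidgut at 0.585 ± 0.44 TPM (n = 4) and exEndo 1 at 0.291 ± 0.50 TPM (n = 4). Of neighbouring groups in that order, only emHindgut and emMidgut, and Epi and exMidgut, had ranges that did not overlap. In all, 20 of the 44 libraries were above 1 TPM and 19 were listed at 0. In bulk libraries a smaller number of expressing cells and less RNA per cell cannot be told apart.

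**Figure D1:**
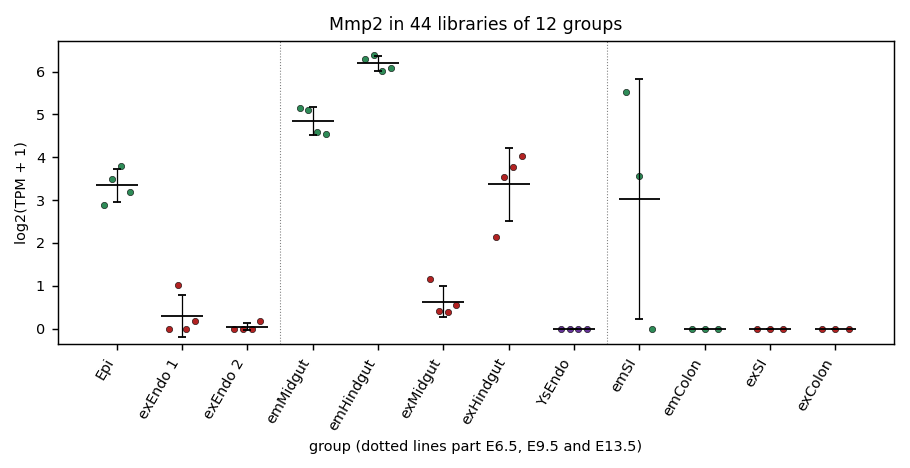
Mmp2 as log2(TPM + 1) in 44 libraries, 1 point each, by group (green: Epi and embryonic gut, red: extraembryonic endoderm and gut, purple: YsEndo), with the mean and SD as bars and dotted lines between E6.5, E9.5 and E13.5. emHindgut is highest (63.2 to 83.1 TPM), exMidgut lies at 1.24 TPM or less, and YsEndo, emColon, exSI and exColon are listed at 0.

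The remaining members differed widely in level and in where they were highest. Mmp14 and Timp3 were above 1 TPM in all 44 libraries. Timp3, Timp1 and Mmp11 each overlap a gene on the opposite strand. Reads from shared stretches may not be told apart where counting ignores strand, and the study lists no strand option for counting. Whether exons overlap was not examined. Mmp11, also called stromelysin-3, reached the highest level of all members, 248 TPM in 1 emMidgut library, and was between 0.519 and 3.11 TPM in all libraries of E6.5 and in YsEndo. Mmp9, gelatinase B, was above 1 TPM in only 2 libraries, emHindgut 1 (4.78 TPM) and emSI 1 (2.96 TPM), was listed at 0 in 29 of 44, and passed the filter on low values in no comparison.

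**Figure D2:**
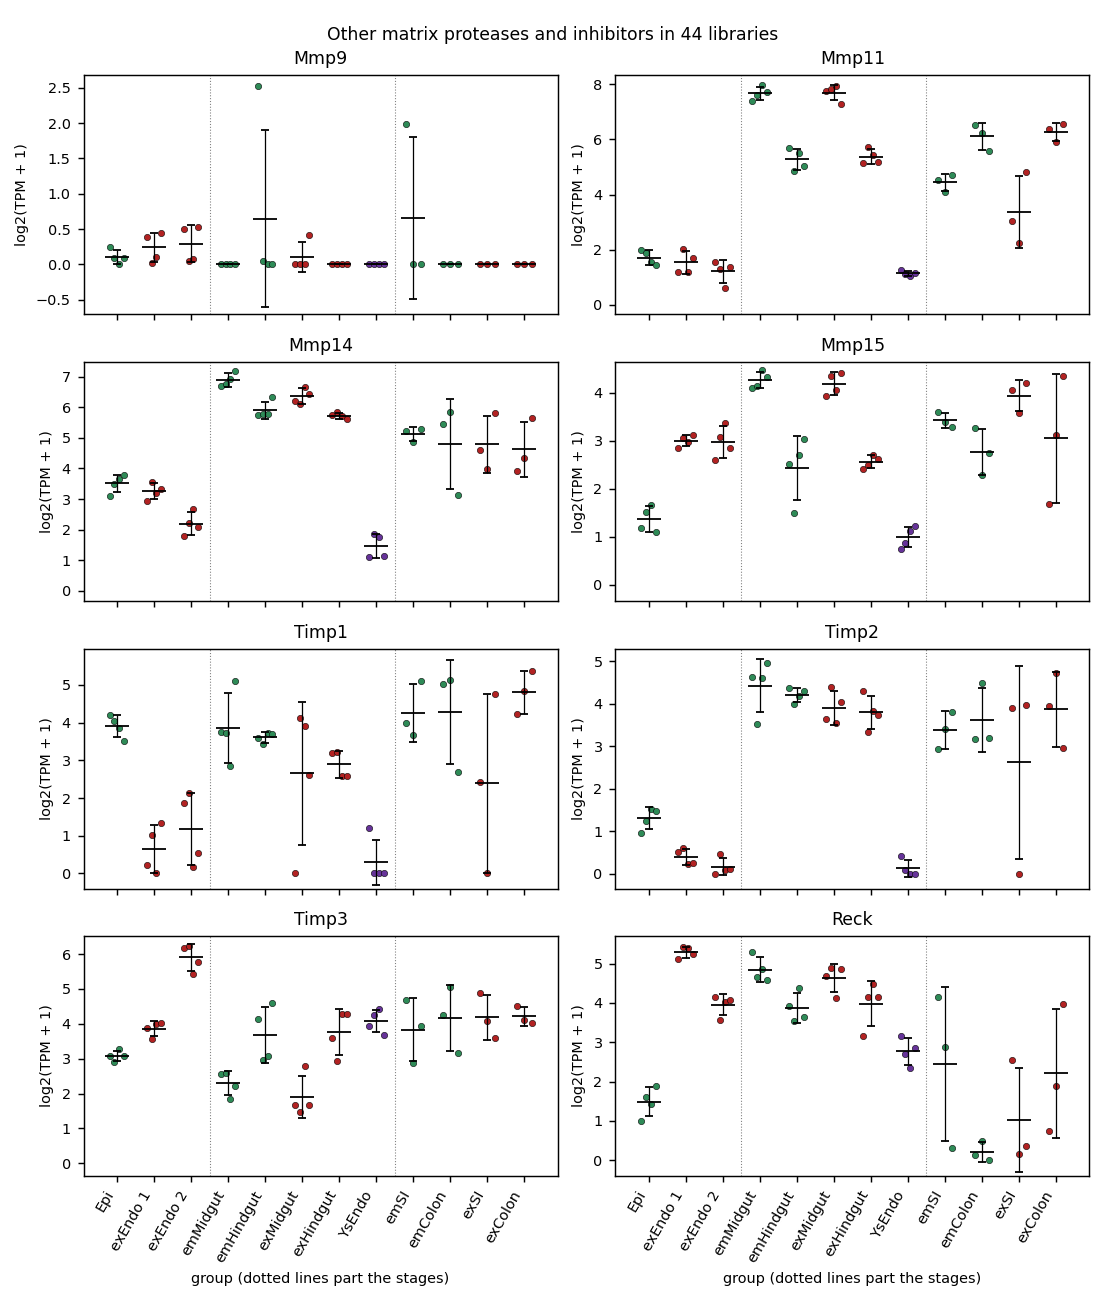
The 8 other members as log2(TPM + 1) in 44 libraries, 1 panel per gene with its own vertical axis, points coloured as for Mmp2 and bars giving mean and SD. Mmp11 and Mmp14 are highest in the midgut groups, Timp3 in exEndo 2 and Reck in exEndo 1, and Mmp9 rises above 1 TPM in 2 libraries.

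The comparison of exEndo 1 with Epi asks how the distal extraembryonic endoderm differs from the epiblast it surrounds. Among 7 members tested, 4 were called: Mmp2 and Timp1 were lower in exEndo 1, and Reck and Mmp15 were higher. Over all genes 33.4% were called, so calls were frequent in this contrast. Reck had 33.7, 41.6, 41.0 and 36.7 TPM in exEndo 1 against 1.02, 2.06, 1.70 and 2.72 TPM in Epi, a 20.4-fold difference of the means (log2 difference 3.80 ± 0.20 SE, adjusted p = 4.19e-08 in limma's test). The lowest exEndo 1 library was thus far above the highest Epi library.

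Timp1, a secreted inhibitor whose gene lies on the X chromosome, went the other way, with 17.4, 15.5, 13.4 and 10.5 TPM in Epi and 0.166, 1.01, 0 and 1.55 TPM in exEndo 1 (log2 difference -3.26 ± 0.29 SE, adjusted p = 2.71e-06). Mmp2 differed by -3.04 ± 0.27 (SE, adjusted p = 2.3e-06). The exact two-sided permutation test of the 8 libraries gave p = 0.0286 for Mmp2, the smallest value that the 70 arrangements allow. Mmp15 (MT2-MMP, a membrane-bound protease like MMP14) had 6.21 to 7.74 TPM in exEndo 1 and 1.13 to 2.17 TPM in Epi (log2 difference 1.64 ± 0.18 SE, adjusted p = 1.08e-05). Timp3, which binds to the matrix, was 0.78 ± 0.16 higher on the log2 scale (SE, adjusted p = 0.00156) and so under the fold threshold. Mmp11 and Mmp14 differed by -0.18 and -0.26 and did not pass. The median log2 difference of the 7 members was -0.18, beside 0.09 for all genes tested.

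exEndo 2 was set against the same Epi libraries, which both comparisons share. Here 6 of 7 members tested were called, 3 higher and 3 lower, where 35.8% of all genes were called. Timp3 had the highest level of its 12 groups in exEndo 2, with 71.6, 74.0, 42.0 and 54.1 TPM against 7.51, 6.55, 8.66 and 7.38 TPM in Epi. This was an 8.03-fold difference of the means (log2 difference 2.82 ± 0.19 SE, adjusted p = 1.19e-07). Reck had 16.9, 10.9, 15.4 and 15.9 TPM and was 7.88-fold above Epi (log2 difference 2.47 ± 0.22 SE, adjusted p = 1.12e-06). Mmp15 was higher by 1.61 ± 0.21 (SE, adjusted p = 3.11e-05). Mmp2 was lower by 3.30, Timp1 by 2.72 and Mmp14 by 1.32 on the log2 scale. Their differences were -3.30 ± 0.20 (adjusted p = 4.92e-08), -2.72 ± 0.39 (adjusted p = 6.68e-05) and -1.32 ± 0.22 (adjusted p = 0.000236), and Mmp11 did not pass at -0.50 (adjusted p = 0.0707).

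The proximal and distal endoderm differed from each other in which inhibitor was abundant. Between exEndo 1 and exEndo 2, 3 of 6 members tested were called, beside 6.41% of all genes. Reck was 2.59-fold higher in exEndo 1 (log2 difference 1.33 ± 0.16 SE, adjusted p = 0.000308), and Timp3 was 4.43-fold higher in exEndo 2 (log2 difference -2.04 ± 0.19 SE, adjusted p = 6.94e-05). Mmp14 had 6.63, 10.8, 8.08 and 9.05 TPM in exEndo 1 and 2.50, 3.61, 5.45 and 3.21 TPM in exEndo 2. For Mmp14 the ranges did not overlap (log2 difference 1.06 ± 0.22 SE, adjusted p = 0.00954), but its call ended without exEndo 1 replicate 2 or exEndo 2 replicate 1 (differences down to 0.93), on FPKM (0.90) and after quantile normalization (0.97). In a fit of all 44 libraries Mmp14 (adjusted p = 0.115) and Reck (adjusted p = 0.193) were not called. Mmp11, Mmp15 and Timp1 did not pass, at 0.32, 0.03 and -0.54.

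Markers of other cell types moved with the groups in this contrast. The 8 parietal endoderm markers, which include the matrix genes Sparc, Lama1, Col4a1 and Nid1, summed to 961 to 1548 TPM in exEndo 2 and to 384 to 495 TPM in exEndo 1, with 6 or 7 of the 8 above 1 TPM in both. The mesenchyme list without Postn summed to 46.0 to 90.8 TPM in exEndo 2 and to 10.2 to 16.2 TPM in exEndo 1. Of the latter list, Pdgfra, which primitive endoderm also expresses, was alone at 41.1 to 84.2 TPM in exEndo 2, where 2 or 3 of the 12 mesenchyme genes were above 1 TPM. The part of these cells in the Timp3 difference was not tested.

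At E9.5 the contrast of all exGut with all emGut libraries is the one behind the choice of Mmp2, and its values are described only. Mean Mmp2 in exMidgut was 2.06% of that in emMidgut, and in exHindgut 14.5% of that in emHindgut. Without exMidgut replicate 1 the midgut value was 1.29%. The log2 differences were -4.22 in the midgut and -2.83 in the hindgut, and -3.52 over both (-3.74 without the emMidgut libraries with Dppa3 RNA). For the other 7 members that passed the filter on low values the differences over both regions lay between -0.96 (Timp1) and 0.06, with a median of -0.26 for all 8 members beside -0.03 for all genes. In this contrast 2.35% of all genes were called, 316 genes, or 587 with region as a covariate. Mmp14 and Timp2, the partners of MMP2 at the cell surface, were at 67.2 to 101 TPM and 10.6 to 19.9 TPM in exMidgut, and at 102 to 145 TPM and 10.5 to 29.8 TPM in emMidgut.

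Whether Mmp2 differed between origins by different amounts in hindgut and midgut was tested as the interaction of origin and region, which does not use the mean difference between origins. The term for Mmp2 was 1.39 ± 0.49 (SE) on the log2 scale, with an unadjusted p of 0.00995 and an adjusted p of 0.43 in limma's test. None of the 8 members tested was called, 1 was under 0.05 before adjustment, and 0.0965% of all genes were called. The other members had adjusted p-values of 0.792 to 0.981.

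Several members differed between gut regions at E9.5. In cells of embryonic origin, emHindgut against emMidgut gave 4 called members of 8 tested, 2 higher and 2 lower, beside 13.9% of all genes. In cells of extraembryonic origin, exHindgut against exMidgut also gave 4 of 8, 2 higher and 2 lower, beside 11.3% of all genes. The members called were Mmp2, Mmp11, Mmp15 and Timp3 in each, with the same sign in both. The comparisons share no library, and whether they share embryos is not given.

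RefSeq promoter entries exist in the table used here for 3 of these 4 members and are shown because these genes were called by region in both origins. Each run is the 250 bases before the start that RefSeq gives (GRCm38.p6, 5′ to 3′ in the direction of transcription), and capitals mark GGGCGG or its reverse complement CCGCCC, the core of the GC box. In GENCODE the Mmp11 run lies wholly inside the gene, and the Mmp15 and Timp3 runs end inside it.
Mmp11, chr10:75932503-75932752, minus strand: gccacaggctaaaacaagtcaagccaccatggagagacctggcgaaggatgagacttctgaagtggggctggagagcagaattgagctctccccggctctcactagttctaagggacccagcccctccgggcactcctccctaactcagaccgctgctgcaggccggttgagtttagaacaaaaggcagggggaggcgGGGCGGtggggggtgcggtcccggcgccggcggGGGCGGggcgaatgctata
Mmp15, chr8:95352046-95352295, plus strand: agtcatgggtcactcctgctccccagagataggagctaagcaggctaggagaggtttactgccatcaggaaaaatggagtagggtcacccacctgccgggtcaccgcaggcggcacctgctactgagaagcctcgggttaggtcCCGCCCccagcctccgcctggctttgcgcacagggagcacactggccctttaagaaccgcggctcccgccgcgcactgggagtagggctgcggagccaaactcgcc
Timp3, chr10:86300162-86300411, plus strand: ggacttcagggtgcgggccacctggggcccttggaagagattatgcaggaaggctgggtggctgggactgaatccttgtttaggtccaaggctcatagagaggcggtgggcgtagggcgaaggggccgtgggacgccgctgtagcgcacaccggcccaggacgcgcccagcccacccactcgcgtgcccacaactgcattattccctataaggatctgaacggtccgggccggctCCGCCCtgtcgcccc
On both strands, GGGCGG was found in 7 of the 7 members with an entry and in 32.74% of 32851 promoters of the same length. TATAA was found in 1 of 7, Timp3, beside 22.78% of all promoters. The E-box CANNTG was found in 5 of 7 beside 66.22%. Neither TGANTCA, the AP-1 form (6.75% of all), nor TTTATNG, searched as a CDX form (9.81% of all), was found in these windows of the 7 members. The printed stretches hold 14, 14 and 18 CpG in the order shown, beside a median of 6 over all promoters. A match is a run of letters and not a site.

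Mmp11 was the member with the largest drop from midgut to hindgut in cells of embryonic origin. It had 168, 197, 248 and 212 TPM in emMidgut and 50.7, 28.2, 44.9 and 31.8 TPM in emHindgut, a 5.31-fold difference of the means (log2 difference -2.40 ± 0.19 SE, adjusted p = 4.37e-07). In extraembryonic cells it had 214, 224, 247 and 156 TPM in exMidgut and 34.7, 52.0, 42.3 and 35.5 TPM in exHindgut, a 5.11-fold difference (log2 difference -2.32 ± 0.18 SE, adjusted p = 1.36e-06). The lowest midgut library was above the highest hindgut library in each origin. Mmp15 was also lower in the hindgut, with 4.77 TPM on average in emHindgut against 18.2 in emMidgut (log2 difference -1.83 ± 0.34 SE, adjusted p = 0.00111), and 4.90 TPM in exHindgut against 17.4 in exMidgut (log2 difference -1.63 ± 0.31 SE, adjusted p = 0.00217).

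Mmp2 and Timp3 were higher in the hindgut. Mean Mmp2 was 2.56-fold higher in emHindgut than in emMidgut (log2 difference 1.35 ± 0.19 SE, adjusted p = 9.95e-05) and 17.96-fold higher in exHindgut than in exMidgut (log2 difference 2.74 ± 0.48 SE, adjusted p = 0.0013), and in neither origin did the ranges overlap. Without exMidgut replicate 1 the extraembryonic difference of means was 28.6-fold. In a fit of all 44 libraries the embryonic Mmp2 difference was not called (adjusted p = 0.0873). Timp3 had 16.5, 6.73, 7.46 and 23.1 TPM in emHindgut and 4.95, 4.98, 2.57 and 3.63 TPM in emMidgut (log2 difference 1.39 ± 0.40 SE, adjusted p = 0.0191). It had 11.1, 6.57, 18.5 and 18.3 TPM in exHindgut and 2.16, 1.75, 5.94 and 2.21 TPM in exMidgut (log2 difference 1.87 ± 0.44 SE, adjusted p = 0.00923). The embryonic Timp3 call ended without emHindgut replicate 1 (adjusted p = 0.0629), without emHindgut replicate 4 (0.0764), without the emMidgut libraries with Dppa3 RNA (0.0758) and with no filter on low values (0.0682). Without those emMidgut libraries Mmp2 (1.36, adjusted p = 0.000548), Mmp11 (-2.40, adjusted p = 9.82e-06) and Mmp15 (-1.81, adjusted p = 0.0126) stayed called.

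Mmp14 and Reck were lower in the hindgut by amounts near or under the fold threshold. Mmp14 differed by -0.98 ± 0.16 (SE, adjusted p = 0.000484) in embryonic and -0.63 ± 0.17 (SE, adjusted p = 0.0203) in extraembryonic cells. Reck differed by -0.97 ± 0.25 (SE, adjusted p = 0.0112) in embryonic cells and by -0.66 (adjusted p = 0.181) in extraembryonic cells. The embryonic Mmp14 difference passed the fold threshold without emMidgut replicate 1 or 2, without emHindgut replicate 4 and without the emMidgut libraries with Dppa3 RNA (-1.03 to -1.12), and that of Reck without emMidgut replicate 2 or 4, without emHindgut replicate 3 and with a pseudocount of 0.1 (-1.02 to -1.14). Other alternatives weakened them. Without the emMidgut libraries with Dppa3 RNA the embryonic Reck difference was -0.74 (adjusted p = 0.114 in limma's test). The fit of all 44 libraries gave adjusted p-values of 0.246 for Reck and 0.0724 for Mmp14 in embryonic cells. Timp1 and Timp2 did not pass in either origin, and their log2 differences lay between -0.24 and 0.24. The median of the 8 members was -0.61 in embryonic and -0.37 in extraembryonic cells, beside -0.02 and 0.00 for all genes.

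**Figure D3:**
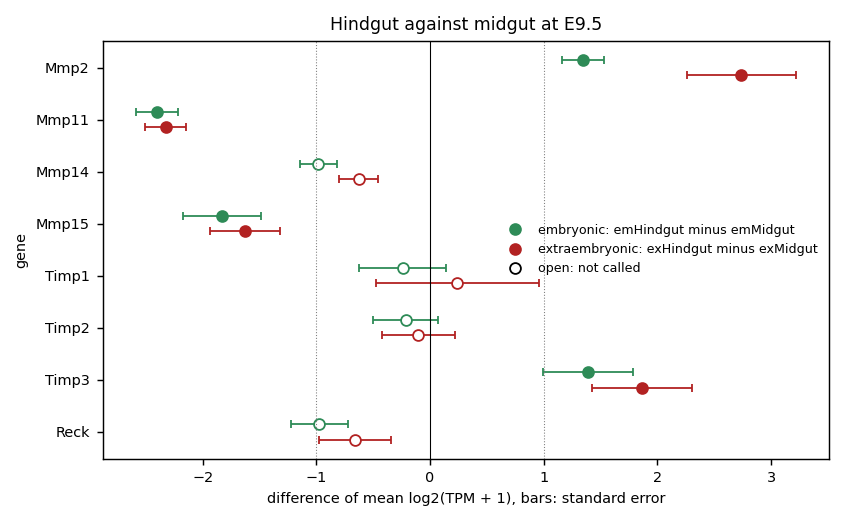
Difference between hindgut and midgut in mean log2(TPM + 1) at E9.5 for the 8 members tested, green for embryonic and red for extraembryonic cells, with standard errors as bars, filled points for called members and dotted lines at -1 and 1. Mmp2 and Timp3 lie to the right and Mmp11 and Mmp15 to the left of the dotted lines in both origins.

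Markers of other cells were also read beside the regional differences. The 9 visceral and yolk sac endoderm markers, led by Afp and Ttr, summed to 7259 to 17365 TPM in exMidgut and 126 to 711 TPM in exHindgut, and to 1522 to 3263 TPM in emMidgut and 40.2 to 123 TPM in emHindgut. The mesenchyme list without Postn summed to 14.4 to 23.1 TPM in emMidgut and 44.4 to 69.03 TPM in emHindgut, and to 14.7 to 32.6 TPM in exMidgut and 23.9 to 38.8 TPM in exHindgut. With Postn the regions overlapped, at 43.0 to 106 TPM in emMidgut and 54.7 to 69.6 TPM in emHindgut. The full sums were 31.1 to 47.0 TPM in exMidgut and 24.5 to 44.9 TPM in exHindgut. Postn itself went the other way, at 19.8 to 86.1 TPM in emMidgut and 0.527 to 10.3 TPM in emHindgut. Within the list, Lum was listed at 0 in all 16 gut libraries of E9.5, Col3a1 was at 1.54 TPM or less and Foxf1 at 2.46 TPM or less. Others of the list had higher ranges in emHindgut than in emMidgut. Twist1 was listed at 0 in emMidgut and at 7.11 to 13.1 TPM in emHindgut, Prrx1 was at 2.71 to 9.40 and 11.6 to 17.998 TPM, Pdgfra at 0.601 to 5.15 and 6.87 to 17.7 TPM and Pdgfrb at 1.47 to 4.14 and 4.79 to 10.3 TPM. Between exMidgut and exHindgut, Prrx1 was at 1.51 to 10.2 and 9.32 to 14.9 TPM, whereas Dcn was at 8.45 to 15.9 and 0 to 6.26 TPM. The number of the 12 genes above 1 TPM was 6 or 7 in emMidgut, 7 or 8 in emHindgut, 5 or 6 in exMidgut and 3 to 7 in exHindgut. The part of either marker list in the regional differences was not tested.

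YsEndo and exEndo 2 are the yolk sac endoderm at E9.5 and the proximal endoderm at E6.5, and stage and isolation method change together between them. All 3 called members of 5 tested were lower in YsEndo, where 29.6% of all genes were called and the median of all genes was itself -0.41. Timp3 had 14.4, 18.2, 20.3 and 11.9 TPM in YsEndo, under every exEndo 2 library, so that exEndo 2 was 3.73-fold higher (log2 difference -1.83 ± 0.20 SE, adjusted p = 7.65e-06). Mmp15 had 0.686, 0.836, 1.17 and 1.32 TPM in YsEndo and 5.05, 7.49, 9.36 and 6.16 TPM in exEndo 2 (log2 difference -1.98 ± 0.22 SE, adjusted p = 8.3e-06). Reck had 7.93, 5.49, 4.12 and 6.24 TPM in YsEndo (log2 difference -1.19 ± 0.21 SE, adjusted p = 0.000258).

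With median-ratio scaling the median of all genes moved to -0.03, and the share of called genes that were higher went from 26.9% (891 of 3315) to 52.6% (1398 of 2660). Timp3 and Mmp15 stayed called at -1.43 (adjusted p = 3.23e-05) and -1.70 (adjusted p = 3.65e-05), while Reck, at -0.83 (adjusted p = 0.00456), fell under the fold threshold. Quantile normalization gave -0.70 for Reck, and the fit of all 44 libraries an adjusted p of 0.0728. Mmp14, at -0.73 ± 0.26 (SE, adjusted p = 0.024), was under the threshold and reached it with a pseudocount of 0.1 (-1.004). Mmp2, Mmp9, Timp1 and Timp2 did not pass the filter on low values and were not tested. Mean Timp1 was 1.66 TPM in exEndo 2, with 2 libraries above 1 TPM, and 0.322 TPM in YsEndo, with 1 above. The median of the 5 members tested was -1.19.

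At E13.5 the libraries labelled Trp53 KO still held RNA of the targeted gene. Trp53 was at 33.4 to 167 TPM in exSI and 42.5 to 124 TPM in exColon, and at 158 to 201 TPM in emSI and 151 to 245 TPM in emColon. A level of RNA does not show whether the reading frame was cut, so it does not check the label.

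Between extraembryonic and embryonic cells at E13.5, with organ in the model, none of 7 members tested was called by limma, none had an unadjusted p under 0.05, and the lowest adjusted p was 0.752. Over all genes 0.625% were called. Mmp2 did not pass the filter on low values here, and the log2 difference was -1.51. With 10 of the 12 libraries listed at 0, the exact permutation test within organs cannot go below p = 0.4, the value it gave, and says nothing. The only E13.5 libraries with Mmp2 above 0 were emSI 1 and emSI 2.

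These were also the libraries with mesenchyme RNA. The sum of the 12 mesenchyme markers was 712, 198 and 1.93 TPM in emSI 1 to 3, with 10, 10 and 1 of the genes above 1 TPM, beside Mmp2 at 45.0, 10.8 and 0 TPM and Reck at 16.7, 6.36 and 0.240 TPM. Lum was at 82.4, 32.1 and 0 TPM, Tcf21 at 141, 20.2 and 0 TPM and Col3a1 at 203, 43.9 and 0 TPM in the same order. Without Postn, which made up most of the sum in the colon, the list was at 6.49 to 12.4 TPM in emColon, 0.0204 to 1.25 TPM in exSI and 2.01 to 7.56 TPM in exColon. In emSI 3, with neither, Mmp2 was listed at 0 as in the other 3 groups. The part of mesenchyme cells in these Mmp2 levels was not tested.

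**Figure D4:**
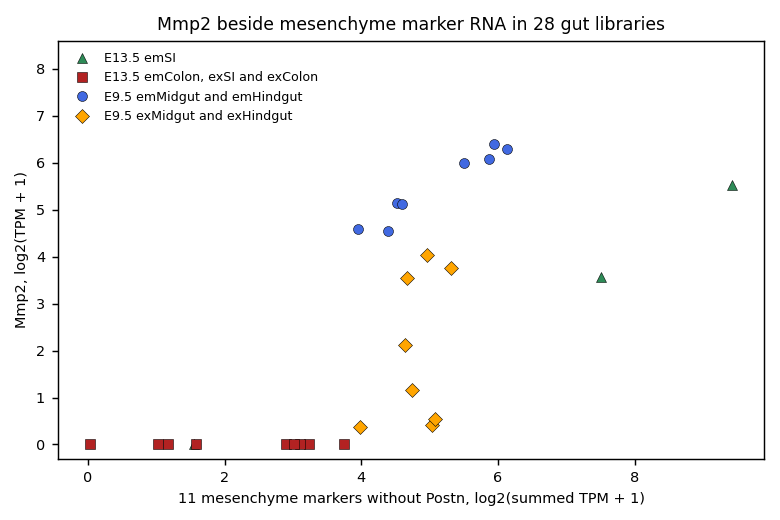
Mmp2 against the summed level of 11 mesenchyme markers without Postn in the 28 gut libraries, both as log2(TPM + 1), by stage and origin. At E13.5 only the 2 emSI libraries with sums of 180 and 686 TPM hold Mmp2, whereas at E9.5 the embryonic libraries hold 22.4 to 83.1 TPM of Mmp2 at sums of 14.4 to 69.03 TPM.

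Mmp11 was higher in colon than in small intestine at E13.5 in every library of both origins, without passing the adjusted test. It had 91.5, 74.9 and 46.4 TPM in emColon and 22.1, 16.1 and 24.9 TPM in emSI, 3.37-fold apart (log2 difference 1.67 ± 0.41 SE, adjusted p = 0.148). It had 82.0, 59.3 and 93.2 TPM in exColon and 7.30, 3.73 and 27.2 TPM in exSI, 6.13-fold apart (log2 difference 2.91 ± 0.63 SE, adjusted p = 0.065), or 14.2-fold without exSI replicate 3. Groups that did not overlap and were higher in colon made up 5.77% of all genes tested in embryonic and 9.45% in extraembryonic cells. The extraembryonic difference was called without exSI replicate 3 (3.63, adjusted p = 0.0222), with the replicate number as a block (adjusted p = 0.0332) and in the fit of all 44 libraries (adjusted p = 6.17e-07). That fit called the embryonic one too (adjusted p = 0.00211), while without emSI 1 and 2 the embryonic difference was 1.42 (adjusted p = 1). That leaves 1 emSI library, which is assumed to vary like the other groups.

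In limma's test of emColon against emSI, 0 of 6 members were called, 1 at an unadjusted p under 0.05, beside 0.472% of all genes. In exColon against exSI, 0 of 7 were called, 2 at an unadjusted p under 0.05, beside 0.693% of all genes. These were Mmp11 and Timp1, the latter, with 17.6, 27.3 and 40.1 TPM in exColon and 4.34, 0 and 25.9 TPM in exSI (log2 difference 2.41, adjusted p = 0.422). The groups overlapped for Timp1. Mmp15 was lower in emColon (8.54, 3.90 and 5.73 TPM) than in emSI (11.1, 9.48 and 8.80 TPM) without being called. Its log2 difference was -0.66 (adjusted p = 0.79 in limma's test), or -0.53 against emSI 3 alone. In the interaction of origin and organ 0 of 7 members were called, beside 0.016% of all genes, and Reck alone was under 0.05 before adjustment (3.42 ± 1.47 SE, adjusted p = 0.556). Reck was uneven within groups, at 16.7, 6.36 and 0.240 TPM in emSI, 0.0984, 0.405 and 0 TPM in emColon, 4.81, 0.128 and 0.291 TPM in exSI and 0.691, 2.72 and 14.8 TPM in exColon. With emSI 3 as the only emSI library, again assumed to vary like the others, its interaction term was 1.28 (adjusted p = 0.993).

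The balance of the 9 genes changed with stage and tissue. Their summed level was 49.1 TPM in Epi, 442 TPM in emMidgut and 26.6 TPM in YsEndo on average. The 4 inhibitors took 51.3% of that sum in Epi, 74.6% in exEndo 1, 85.6% in exEndo 2 and 84.7% in YsEndo. In the gut at E9.5 they took 15.9% in emMidgut, 24.0% in emHindgut, 14.1% in exMidgut and 31.2% in exHindgut, so that protease RNA made up the larger part there. At E13.5 the inhibitor share was 31.5% to 40.8%. Without the libraries that stood apart it was 15.6% in emMidgut (2 libraries left) and 46.0% in emSI (1 library left). The most abundant member was Timp1 in Epi (29.1% of the sum), Reck in exEndo 1 (53.8%), Timp3 in exEndo 2 (66.8%) and YsEndo (60.4%), Mmp11 in emMidgut (46.6%), exMidgut (58.0%), emColon (45.4%) and exColon (43.5%), and Mmp2 in emHindgut (31.4%). Mmp14 led in exHindgut (33.2%), emSI (25.8%) and exSI (30.8%). These shares are descriptions of RNA and say nothing of enzyme activity.

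**Figure D5:**
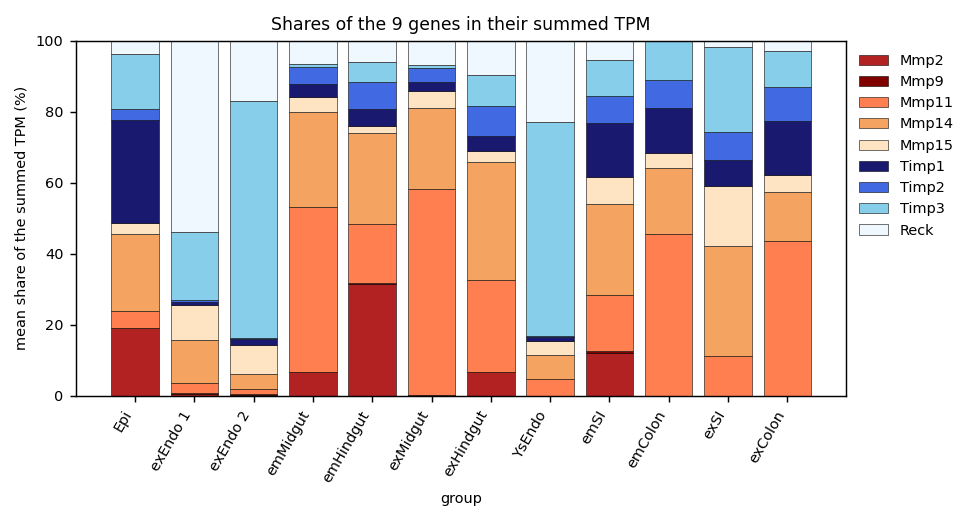
Mean share of each of the 9 genes in their summed TPM for the 12 groups, in percent, with proteases in red tones and inhibitors in blue tones. Inhibitors fill 74.6% to 85.6% of the bars of exEndo 1, exEndo 2 and YsEndo and 14.1% to 31.2% of those of the E9.5 gut groups.

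The 3 genes of the MMP2 activation complex, Mmp2, Mmp14 and Timp2, were above 1 TPM together in 18 of 44 libraries. These were 3 of 4 Epi, all 4 of emMidgut, emHindgut and exHindgut, 1 of 4 exMidgut and 2 of 3 emSI libraries. Over the 12 group means, Mmp14 and Timp2 had a Pearson correlation of 0.936 and Mmp11 and Mmp14 one of 0.897, while Mmp2 and Mmp14 had 0.554 and Mmp2 and Timp3 had -0.416. Groups of a stage share their way of isolation, all share the library protocol, and the correlations are descriptions.

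Genes of most similar pattern to Mmp2 were Ncam1 (Pearson correlation 0.979 over the 12 group means), Car3 (0.945), Pcsk1 (0.931), Emilin3 (0.925) and Ogfr (0.922), out of 12463 candidates. NCAM1 is a cell adhesion molecule, CAR3 a carbonic anhydrase, PCSK1 a proprotein convertase and EMILIN3 an extracellular matrix glycoprotein. All 5 were highest in emHindgut. Over the 44 libraries Ncam1 remained first (0.955) and 2 of the 5 were kept. With Spearman correlation 1 of the 5 was kept. The nearest gene was Sox5 for Mmp11 (0.971), Nrep for Mmp14 (0.971), Fam171a1 for Mmp15 (0.924), Cdca4 for Timp1 (0.956), Vcan, a matrix proteoglycan, for Timp2 (0.992), Atad3a for Timp3 (0.863) and Pdlim5 for Reck (0.975). For Mmp9, which was near 0 in most groups, it was Zeb1 (0.877). Of these 8 nearest genes Spearman correlation kept 1, Pdlim5, and the 44 libraries kept 2, Nrep and Vcan.

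Other genes of matrix turnover were read from 5 lists of 88 genes, of which 87 matched. Between exEndo 1 and Epi, 28 of 42 tested were called, 18 higher and 10 lower, and between exEndo 2 and Epi 28 of 44, 19 higher and 9 lower, beside the shares of all genes given above. Of the 13 matrix substrates tested, 9 were higher in each of these comparisons. Col4a1, a chain of basement membrane collagen IV, was at 89.7 TPM in exEndo 1 and 4.94 TPM in Epi (log2 difference 3.95, adjusted p = 4.5e-09), and Lama1, a laminin chain, was 5.06 higher on the log2 scale in exEndo 2 (adjusted p = 4.7e-07). Serpinf2, the inhibitor of plasmin, was higher by 3.86 in exEndo 1 (adjusted p = 3.62e-08) and by 5.15 in exEndo 2 (adjusted p = 6.6e-10). The largest falls were those of Adam23 (-3.87 and -3.81) and of the membrane-anchored protease Mmp25 (-3.56 and -3.84), in the order exEndo 1 and exEndo 2. Adjusted p was between 8.19e-09 and 8.89e-07 for these values. Between exEndo 1 and exEndo 2, 11 of 36 were called, among them Sparc (297 against 974 TPM, log2 difference -1.70), Lama1 (-2.31), Lrp1 (17.3 against 4.08 TPM, log2 difference 1.86), an endocytic receptor that clears proteases, and Adamts10 (1.74).

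In the E9.5 gut, 4 of the 7 genes tested of the plasminogen system, the serine protease cascade that also acts on matrix, were called lower in the hindgut in each origin and none higher. Their medians were -1.94 in embryonic and -2.10 in extraembryonic cells beside -0.02 and 0.00 for all genes. Plg, the plasmin precursor, was at 33.4 TPM in emMidgut and listed at 0 in emHindgut, and at 34.5 TPM in exMidgut and 0.404 TPM in exHindgut (adjusted p = 7.35e-08 and 7e-06). Serpinf2 was at 138 and 3.06 TPM in emMidgut and emHindgut (log2 difference -5.32, adjusted p = 4.48e-07), and at 184 and 3.52 TPM in exMidgut and exHindgut (log2 difference -5.19, adjusted p = 5.6e-07). Both are also products of liver and visceral endoderm. The visceral and yolk sac endoderm markers were lower in the hindgut, as given above. The part of such cells in the Plg and Serpinf2 differences was not tested. Adam19 and Adamts20, proteases of the ADAM and ADAMTS families, were the called genes with the largest rise. Adam19 was at 29.9 TPM in emHindgut and 5.47 TPM in emMidgut (adjusted p = 8.84e-05) and at 20.7 and 1.74 TPM in exHindgut and exMidgut (adjusted p = 0.000157). The log2 difference of Adamts20 was 3.24 (adjusted p = 1.66e-05) in embryonic and 2.88 (adjusted p = 0.000589) in extraembryonic cells. Over all lists, 22 of 56 genes were called in embryonic cells, 7 higher and 15 lower, and 17 of 56 in extraembryonic cells, 4 higher and 13 lower. In the interaction 0 of 61 were called.

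In YsEndo against exEndo 2, 18 of 37 list genes were called, 9 in each direction, with Plg (69.8 against 5.69 TPM) and Serpinf2 (392.3 against 35.7 TPM) higher and Lama1 (-2.63) and Adamts9 (-2.45) lower. At E13.5, Serpinf2 alone of 49 list genes was called between extraembryonic and embryonic cells (1.51, adjusted p = 0.0203). Serpine2, an inhibitor of plasminogen activators and thrombin, was the only one of 36 called between emColon and emSI, at 235 and 55.1 TPM (log2 difference 2.08, adjusted p = 0.00922). Between exColon and exSI 0 of 36 were called.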

How the data were processed

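Messenger RNA of 44 libraries in 12 groups was profiled with a low-input protocol. Per the labels and the study's methods, the authors removed adaptors and poor-quality ends with cutadapt 4.1, mapped reads to mm10 plus the reporter sequences by STAR 2.7.9a, and estimated gene levels by StringTie 2.0.6 in estimation mode on GENCODE VM23. The authors deposited TPM, FPKM and coverage per gene for each library, and TPM sums to 1000000 in each. TPM of lines with 1 gene identifier was summed here. FPKM served as an alternative, and coverage gave the aligned sequence per library. Counts per gene were not used, so precision is known only from the spread between libraries, and an exact 0 in these low-input libraries is given as listed at 0.

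Protein-coding genes not on the Y chromosome (gene types from GENCODE vM21) with more than 1 TPM in at least 4 libraries of a comparison (3 at E13.5) were tested on log2(TPM + 1) with limma 3.58.1 in R 4.3.3 (lmFit, eBayes with trend), as a two-sided test adjusted by Benjamini-Hochberg across every gene tested. Interactions had no fold threshold. The fits were tested on simulated data. Members and lists were chosen with earlier results of these data known. Named besides the members were, per comparison, the 2 called list genes with the largest rise and the 2 with the largest fall, and the 5 (Mmp2) or 1 (other members) protein-coding genes, at 5 TPM or more in their highest group, of highest Pearson correlation over group means. Libraries with Dppa3 or mesenchyme RNA were left out in alternatives chosen after seeing the data. The other alternatives were another pseudocount, no filter, FPKM, median-ratio and quantile scaling, all libraries in 1 fit, the replicate block and each replicate left out. Replicate numbers paired exEndo 1 with exEndo 2, where the 4 same-numbered pairs of libraries had correlations of their deviations of 0.167 to 0.402. In the E13.5 contrast of origins every library also correlated best with its own number, but weakly (0.0150 to 0.0723). In no other comparison did all numbers match. Promoters are those of RefSeq (GRCm38.p6), with entries for 7 of 9 members. Mmp11, Timp1 and Timp3 overlap genes on the opposite strand (Chchd10, Syn1 and Syn3), and the counting parameters the study lists name no strand option. Reads from stretches that both genes share may therefore not be told apart. Whether exons overlap was not examined. Timp2 and Reck also overlap other genes (Cep295nl and Gm27265).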

Additional observations from a re-analysis of the deposited data

Results flagged for a closer look

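In 6 of 60 combinations of a member and a group of 4 libraries, 1 library lay far from the others by Dixon's criterion (critical value 0.829), which chance gives in about 1 of 20 groups. The 12 further combinations, in which no library reached 1 TPM, were not examined. Mmp2 was at 1.04 TPM in exEndo 1 replicate 2 and at 0 to 0.129 TPM in the others. Mmp2 was at 1.24 TPM in exMidgut replicate 1 and at 0.303 to 0.461 TPM in the others. Mmp9 was at 4.78 TPM in emHindgut replicate 1 and at 0 to 0.0382 TPM in the others. Mmp14 was at 79.0 TPM in emHindgut replicate 4 and at 52.6 to 54.0 TPM in the others. Timp1 was at 1.29 TPM in YsEndo replicate 1 and listed at 0 in the others. Timp3 was at 5.94 TPM in exMidgut replicate 3 and at 1.75 to 2.21 TPM in the others.

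Mmp11 was lower in hindgut than in midgut at E9.5 and higher in colon than in small intestine at E13.5. The dissected parts differ between these stages. The sorted cells differ too, with low mCherry in the GFP+ cells at E9.5 and Trp53 KO in the mCherry+ cells at E13.5. The log2 difference was -2.40 between emHindgut and emMidgut and 1.67 between emColon and emSI, and -2.32 between exHindgut and exMidgut and 2.91 between exColon and exSI. In each of these comparisons no library of one group reached the range of the other. The difference between the stages was not tested, and the E13.5 values did not pass the adjusted test.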

How the results depend on the processing

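The tally here covers only members' differences at an adjusted p under 0.05 or with ranges that did not overlap. For interactions it took an unadjusted p under 0.05, and for exGut against emGut only Mmp2. Of 547 such alternative values, 519 kept their direction and side of the threshold, 14 lost and 14 gained a call, and none turned its sign. Outside the tally, leaving out 1 library turned some ratios of mean TPM. Timp1 in emMidgut over emHindgut went from 1.42 to 0.909 without emMidgut replicate 4. Reck in exColon over exSI went from 3.48 to 0.977 without exColon replicate 3. The replicate block changed no member's call except Mmp11 in exColon against exSI (1 member called, adjusted p = 0.0332), and left 8 genes called in the E9.5 interaction. In the E13.5 contrast of origins every library correlated best with its own replicate number (0.0150 to 0.0723), and the block gave 93 genes there beside 78. The study sorted GFP+ cells from organs of these knockout embryos as the control for the mCherry+ cells. Whether libraries with the same number came from the same embryo is not given. The cause was not tested for the changes below.

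Fitting all 44 libraries together moved most counts: 458 genes and 1 member for exEndo 1 against exEndo 2, 591 genes for exGut against emGut, 47 genes for the E9.5 interaction, 1207 genes for extraembryonic against embryonic at E13.5, 1409 genes and 1 member (Reck, adjusted p = 0.00822) for the E13.5 interaction, 1488 genes and 1 member for emColon against emSI, and 1320 genes and 2 members (Mmp11 and Timp1) for exColon against exSI. Mmp2 in emHindgut against emMidgut was then 1.35 without a call (adjusted p = 0.0873). Region as a covariate, in the 16 libraries of exGut and emGut, gave 587 genes. A pseudocount of 0.1 gave 0 genes in both interactions and 11 in exColon against exSI. No filter on low values gave 8 genes (E9.5 interaction), 14 (E13.5 interaction), 3 (emColon against emSI) and 2 (exColon against exSI). Without the 2 emMidgut libraries with Dppa3 RNA the E9.5 interaction held 5 genes, and without the 2 emSI libraries with mesenchyme RNA the E13.5 comparisons held 48 (extraembryonic against embryonic), 0 (interaction) and 9 genes (emColon against emSI), with the 1 emSI library left assumed to vary like the other groups.

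Quantile normalization moved the median of all genes from 0.09 to -0.12 (exEndo 1 against Epi), from 0.05 to -0.12 (exEndo 2 against Epi), from 0.24 to 0.01 (E13.5 interaction), from -0.15 to -0.01 (emColon against emSI) and from 0.11 to -0.01 (extraembryonic against embryonic at E13.5), with no sign turned among the members' differences in the tally above.

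Leaving out each replicate in turn gave 3 to 19 genes in the E9.5 interaction, 0 to 3 in the E13.5 interaction, 7 to 36 in emColon against emSI, and 7 to 71 genes and 0 to 1 member in exColon against exSI. With 3 libraries a group and no counts, differences at E13.5 smaller than the spread between libraries could not be shown.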
